A study of Solanum lycopersicum with 24 samples.

Results

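Loss of SlMYB92 was set directly against loss of SlMYB41 in tomato hairy roots, as 3 SlMYB92 knockout libraries against 3 SlMYB41 knockout libraries, chosen by the group name in the column headers and making up 6 of the 24 libraries of the series. Hairy roots are root cultures that grow after Rhizobium rhizogenes has transformed plant tissue. Both knockouts were made with CRISPR/Cas9. The empty-vector control line was used to place each difference, and the other 5 groups were used for their levels only: overexpression of SlMYB41, of SlMYB92 and of SlWRKY71 from the 35S promoter as 3xFLAG fusions, and lines 4 and 5 of the SlWRKY71 knockout. Each group was 1 hairy root line with 3 libraries, so a difference between genotypes cannot be told apart from a difference between individual lines, and p-values measure the spread between samples of a line. Per the labels, all lines grew on medium with 3% sucrose for 9 days at 25 °C in the dark, and every sample pooled the tips of 10 roots.

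SlMYB41 and SlMYB92 are R2R3-type MYB transcription factors. Their Arabidopsis counterparts MYB41 and MYB92 switch on genes for suberin, a polyester of fatty acids, glycerol and phenolics that seals cell walls. In tomato roots suberin is laid down mainly in the exodermis, the outermost cortical layer. The question addressed here is where the transcriptomes of the 2 knockouts differ from each other.

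The 6 knockout libraries held between 5252664 and 15372241 estimated counts, the largest being library 2 of the SlMYB92 knockout. Libraries are named by the number in the column name (2, 3 and 5 in both knockouts and in the control), which is not the replicate number of the labels. Levels are given as CPM, a library's counts scaled to a common total, after TMM scaling. The sources used here pair none of the 34688 locus identifiers with a gene name, so genes other than the 3 targets appear by identifier, without a function. For that reason no pathway list and no list of markers for exodermis, epidermis or vascular cells could be filled, and the labelled tissue was not checked against markers. In root tips measured in bulk, fewer cells of a type and less RNA per cell cannot be told apart.

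The targeted genes did not separate the knockouts. SlMYB92 (Solyc05g051550) had 3, 0 and 0 counts in libraries 2, 3 and 5 of the SlMYB92 knockout, 0, 1 and 2 counts in the SlMYB41 knockout and 0, 0 and 2 counts in the control. SlMYB41 (Solyc02g079280) had 1, 1 and 4 counts in the SlMYB92 knockout, 0, 0 and 2 counts in the SlMYB41 knockout and 0, 1 and 0 counts in the control. Both genes were so close to 0 in the control that a fall in their own knockout was not detectable at this depth, and the counts do not check the labels. The log2 difference between the knockouts was -0.43 (SE 1.23) for SlMYB92 and 1.09 (SE 1.34) for SlMYB41 (edgeR quasi-likelihood adjusted p, 0.92 and 0.77). The identifiers of the targets come from general knowledge, and the overexpression lines bear on them: SlMYB92 averaged 65.5 ± 20.1 CPM and SlMYB41 11.1 ± 3.41 CPM in their own overexpression groups (SD, n = 3 each), and each ranked 1 of 18297 genes by the ratio of its own overexpression group to the highest other group.

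SlWRKY71 (Solyc02g071130), the third factor of the study, stood at 1.39, 5.55 and 0.717 CPM in the SlMYB92 knockout, 2.06, 1.37 and 2.02 CPM in the SlMYB41 knockout and 1.99, 1.59 and 1.13 CPM in the control. These libraries overlapped, and the log2 difference between the knockouts was 0.44 (SE 0.75, edgeR quasi-likelihood adjusted p = 0.84).

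Between the knockouts, 65 of 18297 tested genes were called changed, which is 0.355% of all genes tested at a Benjamini-Hochberg adjusted p under 0.05. Of these, 28 genes (0.153% of those tested) were higher in the SlMYB92 knockout than in the SlMYB41 knockout, and 37 (0.202%) were lower. Differences among called genes were large: the higher genes had a median log2 fold change of 3.26, with a range of 1.69 to 6.86, and the lower genes a median of -2.40, with a range of -8.81 to -0.85, where the extremes include genes without a count in 1 group. Over all tested genes the median size of the log2 difference was 0.28. The called genes had a median of 10.6 CPM in the knockout where they were higher, against 15.3 CPM for the same quantity over all tested genes. The 3 libraries of one knockout did not overlap the 3 of the other in any of the 65 genes, a state found in 16.4% of all tested genes, higher in 9.12% and lower in 7.24%.

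Many of the called genes were close to silent on one side. Of the 28 higher genes, 15 averaged under 1 CPM in the SlMYB41 knockout, as did 10.7% of all tested genes. Of the 37 lower genes, 15 averaged under 1 CPM in the SlMYB92 knockout, as did 6.58% of all tested genes. Complete absence was rarer: 3 of the lower genes had no count in the SlMYB92 knockout, and 2 of the higher genes had no count in the SlMYB41 knockout. Over all tested genes, 0.344% had no count in the SlMYB92 knockout and 0.415% none in the SlMYB41 knockout. Genes chosen for a large difference are likelier to be low on one side.

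How many genes were called changed when single libraries were left out. Without library 2 or 5 of the SlMYB92 knockout, 34 and 33 genes were called, and without library 2, 3 or 5 of the SlMYB41 knockout, 57, 25 and 32. Each such fit has fewer libraries in that group, and the cause of these changes was not tested. In 12 alternative analyses, which included leaving out each of the 6 knockout libraries, every one of the 65 genes kept its direction wherever it was tested, and 12 of them were called each time. Library 3 of the SlMYB92 knockout was the highest of its group in 34 of the 65 genes (52.3%), against 34.4% of all tested genes, and without it 57 genes were called, 40 of them among the 65.

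**Figure D1:**
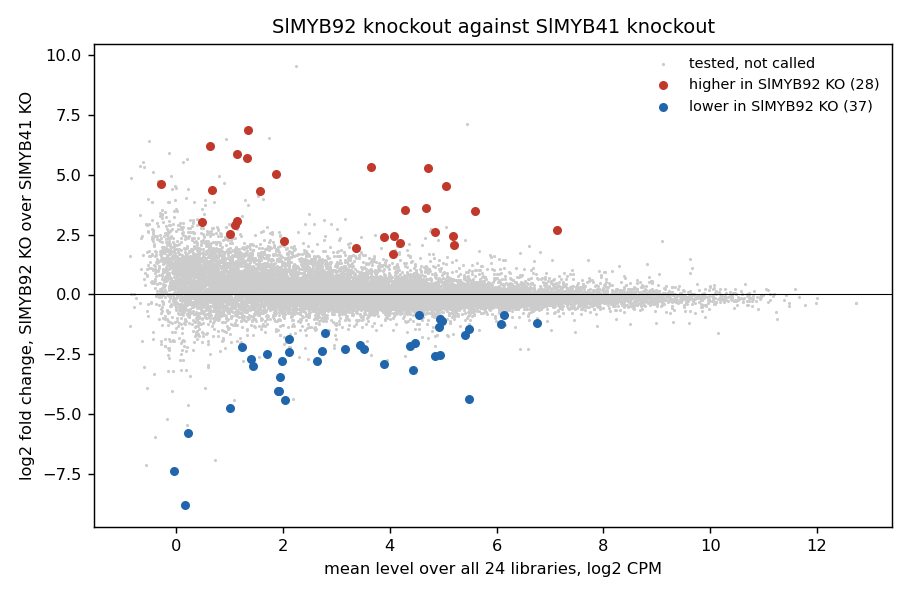
Each point is a gene, with its mean level over all libraries as log2 CPM on the x axis and the fitted log2 fold change of the SlMYB92 knockout over the SlMYB41 knockout on the y axis. The 65 called genes are coloured, 28 above 0 and 37 below. Their mean levels run from -0.28 to 7.13 log2 CPM, with a median of 3.36 against 3.85 for all tested genes.

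Each knockout was then placed against the control line. Of all tested genes, 525 (2.87%) were called in the SlMYB92 knockout against the control and 935 (5.11%) in the SlMYB41 knockout against the control. Among the 65 genes, 31 were called in the first and 38 in the second of these comparisons: 20 in the SlMYB92 knockout alone, 27 in the SlMYB41 knockout alone, 11 in both and 7 in neither. Both comparisons use the same 3 control libraries, so these counts only place the genes. The 65 were chosen for a difference between the knockouts, which favours genes called in 1 knockout alone. The commonest pattern among the 28 higher genes was a fall in the SlMYB41 knockout without a call in the SlMYB92 knockout, seen in 16. Whatever the call in the other knockout, 2.62% of all tested genes were called higher and 2.49% lower in the SlMYB41 knockout against the control. In the SlMYB92 knockout 1.12% were called higher and 1.75% lower. Among the 37 lower genes, 14 fell in the SlMYB92 knockout without a call in the SlMYB41 knockout, and 11 rose in the SlMYB41 knockout without a call in the SlMYB92 knockout.

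**Figure D2:**
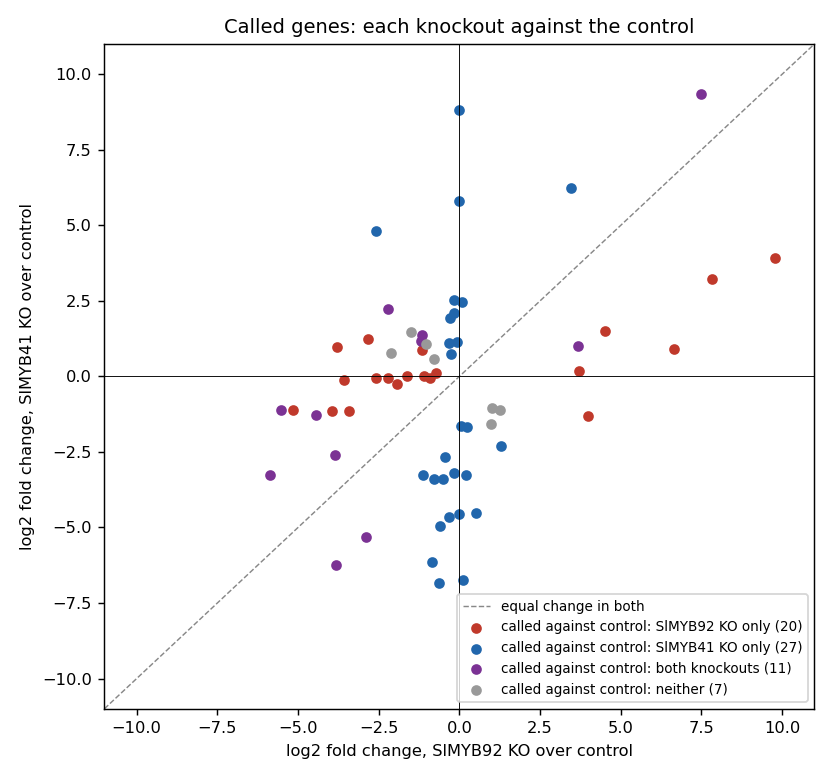
Each point is 1 of the 65 called genes, with the fitted log2 fold change of the SlMYB92 knockout over the control on the x axis and that of the SlMYB41 knockout over the control on the y axis. Colours give the comparison with the control in which the gene was called (20 in the SlMYB92 knockout only, 27 in the SlMYB41 knockout only, 11 in both, 7 in neither). Both axes share the control libraries, and values of genes without a count in a group depend on the fit.

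The 5 remaining lines gave a wider yardstick. In 19 of the 65 genes (29.2%) the SlMYB92 knockout mean alone lay outside the range of the 6 group means of the other lines, control included, against 13.6% of all tested genes. In 22 (33.8%) the SlMYB41 knockout mean alone lay outside that range, against 17.3% of all tested genes. The knockouts lay outside on the same side in 10 genes (15.4%, against 11%) and on opposite sides in 6 (9.23%, against 1.44%), and both lay within the range in 8 (12.3%, against 56.6%). The SlMYB92 knockout alone lay above the range in 4 genes (6% of all tested), and the SlMYB41 knockout alone also in 4 (9.87% of all tested). These shares describe genes chosen for a difference between the knockouts, and a gene that differs is more likely to leave the range.

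**Figure D3:**
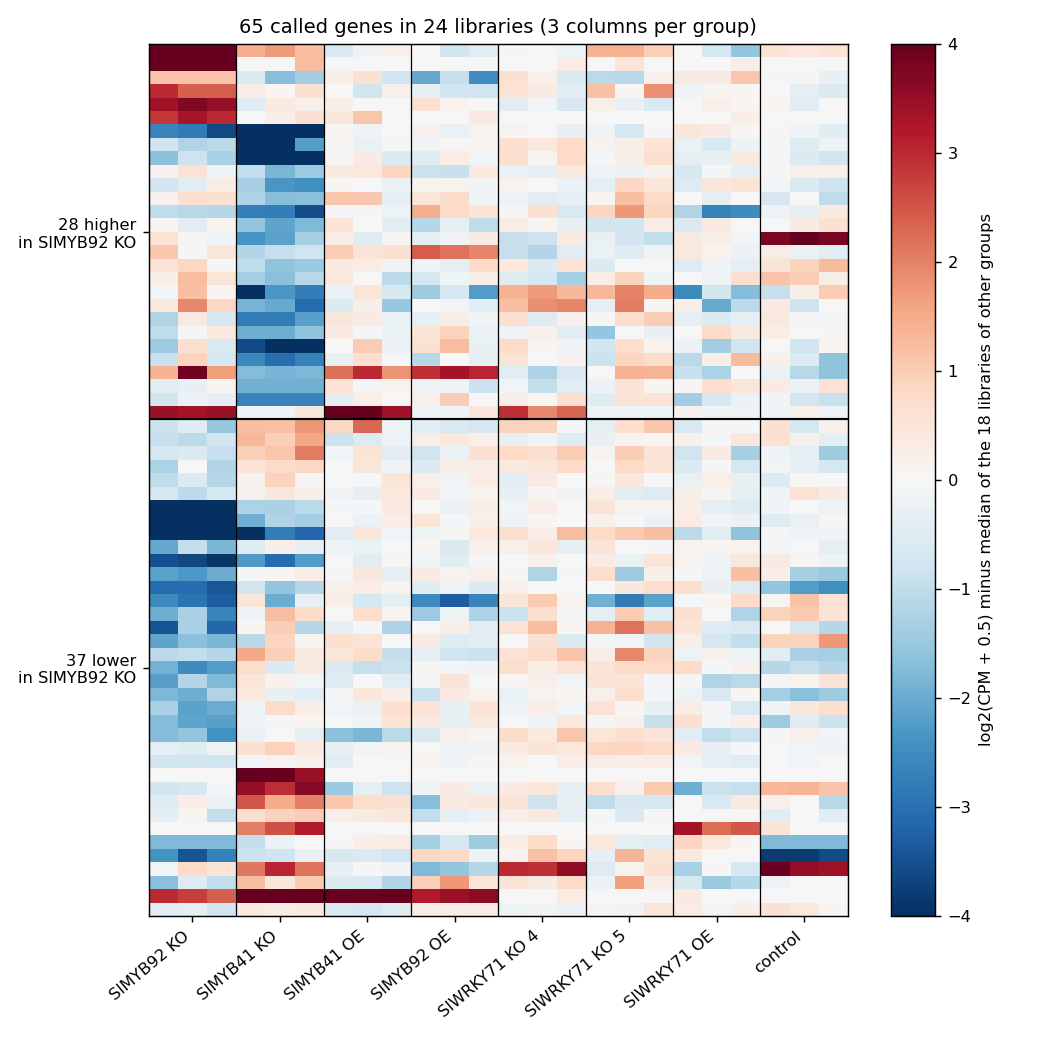
Rows are the 65 called genes, the 28 higher in the SlMYB92 knockout above the 37 lower, and columns are the 24 libraries, 3 per group. Colour gives log2(CPM + 0.5) minus the median of the 18 libraries of the other 6 groups. The dark blue blocks of the SlMYB41 knockout lie mostly in the upper part, and those of the SlMYB92 knockout in the lower part.

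The difference with the smallest p was a gene high in the SlMYB92 knockout alone. Solyc03g121000 stood at 85.6, 111 and 95.3 CPM in the SlMYB92 knockout (libraries 2, 3 and 5, here and in what follows), 5.44, 10.5 and 9.31 CPM in the SlMYB41 knockout and 8.43, 5.87 and 8.08 CPM in the control. The other 5 groups averaged between 5.97 and 9.86 CPM, so the SlMYB92 knockout libraries stood apart from the whole series. Its log2 fold change between the knockouts was 3.51 (SE 0.26, edgeR quasi-likelihood adjusted p = 9.7e-08). Against the control it was 3.69 (SE 0.26) in the SlMYB92 knockout and 0.18 (SE 0.26) in the SlMYB41 knockout (edgeR quasi-likelihood adjusted p, 3.2e-09 and 0.73).

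Solyc02g032850 was the most abundant called gene, at 737, 734 and 693 CPM in the SlMYB92 knockout, 111, 134 and 94.6 CPM in the SlMYB41 knockout and 57.9, 54.1 and 57.7 CPM in the control. The 3 groups did not overlap. It was the only one of the higher genes to be called up in both knockouts against the control, with log2 fold changes of 3.67 (SE 0.30) in the SlMYB92 knockout and 1.00 (SE 0.28) in the SlMYB41 knockout (edgeR quasi-likelihood adjusted p of 2.9e-08 and 0.036). Between the knockouts the log2 fold change was 2.67 (SE 0.29, edgeR quasi-likelihood adjusted p = 1.6e-05). Line 5 of the SlWRKY71 knockout, at a mean of 96.9 CPM, came close to the SlMYB41 knockout, and the other 4 groups apart from the control averaged 39.1 CPM or less. The rise in the SlMYB41 knockout was not called without library 2 or 3 of that knockout (edgeR quasi-likelihood adjusted p of 0.064 and 0.12), nor without library 2, 3 or 5 of the control (0.068, 0.11 and 0.12).

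The largest rises against the control among the 65 were in genes that the control did not express at this depth. Solyc03g096160 stood at 9.76, 19.1 and 13.6 CPM in the SlMYB92 knockout, 0, 0 and 0.675 CPM in the SlMYB41 knockout, and had no count in the control. In the other 5 groups it averaged 0.0682 CPM or less, so the transcript was seen almost wholly in the SlMYB92 knockout line. It was at least 110-fold higher there than in the control, with the 3 control libraries together set at 3 counts, and the log2 fold change between the knockouts was 5.86 (SE 0.86, edgeR quasi-likelihood adjusted p = 0.0043). DESeq2 gave an adjusted p of 0.5 for the same difference and 0.19 against the control. Solyc04g072360 showed the same pattern at a lower level, with 3.05, 4.38 and 3.46 CPM in the SlMYB92 knockout, 0, 0.105 and 0.27 CPM in the SlMYB41 knockout and no count in the control. From 105 against 3 counts, it was 25.7-fold higher in the SlMYB92 knockout than in the SlMYB41 knockout, with a 95% counting interval of 8.56 to 127.

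The call on Solyc04g072360 was marginal, at an edgeR quasi-likelihood adjusted p of 0.046. Leaving out library 2, 3 or 5 of the SlMYB92 knockout gave 0.11, 0.11 and 0.15, and leaving out library 2, 3 or 5 of the SlMYB41 knockout gave 0.17, 0.29 and 0.13.

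A further pair of genes, singled out because they were called in every alternative, were high in the SlMYB92 knockout and also in other lines than the control. Solyc09g089570 stood at 5.78, 5.25 and 5.73 CPM in the SlMYB92 knockout, 0, 0 and 0.27 CPM in the SlMYB41 knockout and 0, 0.159 and 0 CPM in the control. From 171 against 2 counts, it was 62.8-fold higher in the SlMYB92 knockout than in the SlMYB41 knockout, with a 95% counting interval of 17.1 to 523 (edgeR quasi-likelihood adjusted p = 0.0018). It averaged 9.75 CPM under SlMYB41 overexpression and 2.64 CPM in line 4 of the SlWRKY71 knockout, but was without a count in line 5 of that knockout. Solyc04g016460 stood at 10.4, 60.7 and 12.8 CPM in the SlMYB92 knockout, 0.751, 0.63 and 0.675 CPM in the SlMYB41 knockout and 2.93, 1.43 and 0.846 CPM in the control. The SlMYB92 knockout mean of 28.0 ± 28.4 CPM (SD, n = 3) rests largely on library 3, yet its lowest library was still above every library of the SlMYB41 knockout and of the control. Both MYB overexpression groups were high as well, at 21.4 CPM for SlMYB41 and 35.1 CPM for SlMYB92. The SlMYB92 knockout mean thus lay within the 1.73 to 35.1 CPM of the 6 other groups. For this gene the SlMYB41 knockout mean of 0.685 CPM lay below all 6, without a call against the control. Its log2 fold change between the knockouts was 5.32 (SE 0.71, edgeR quasi-likelihood adjusted p = 0.00038).

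Genes called lower against the control in the SlMYB41 knockout alone formed the largest group among the 28. Solyc10g018905 had the largest fitted difference upwards, with 1.39, 2.19 and 2.03 CPM in the SlMYB92 knockout, no count in any SlMYB41 knockout library, and 2.46, 1.43 and 1.22 CPM in the control. It was at least 13-fold higher in the SlMYB92 knockout than in the SlMYB41 knockout (edgeR quasi-likelihood adjusted p = 0.0011), and at least 12.5-fold lower in the SlMYB41 knockout than in the control. Fitted on the 6 knockout libraries alone, its adjusted p between the knockouts was 0.067. Solyc01g105430 came next, with 0.93, 1.02 and 1.55 CPM in the SlMYB92 knockout, again no count in the SlMYB41 knockout, and 1.87, 1.11 and 2.35 CPM in the control. It was at least 8.33-fold higher in the SlMYB92 knockout than in the SlMYB41 knockout (edgeR quasi-likelihood adjusted p = 0.003). Every one of the other 5 lines expressed both genes, with group means from 0.884 to 3.88 CPM.

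Another 3 genes with the same pattern of calls stood at higher levels, and were singled out because they were called in every alternative. Solyc04g057790 stood at 9.49, 17.2 and 12.3 CPM in the SlMYB92 knockout, 0, 0.21 and 0.675 CPM in the SlMYB41 knockout and 29.9, 21.1 and 18.5 CPM in the control. Its log2 fold change between the knockouts was 5.29 (SE 0.52, edgeR quasi-likelihood adjusted p = 4.5e-06). The SlMYB41 knockout fell by 6.14 on the log2 scale against the control (SE 0.51), while the SlMYB92 knockout differed by -0.84 (SE 0.33) without a call, at edgeR quasi-likelihood adjusted p of 4e-08 and 0.25. Even so, all SlMYB92 knockout libraries lay below those of the control. Their mean of 13.0 CPM was under all 6 other group means, of which the control was the lowest at 23.2 CPM. Solyc10g076740 stood at 12.5, 55.0 and 23.2 CPM in the SlMYB92 knockout, 2.44, 0.63 and 1.08 CPM in the SlMYB41 knockout and 34.2, 19.7 and 37.0 CPM in the control. The SlMYB92 knockout thus overlapped the control, at a log2 difference of -0.02 (SE 0.50), and differed from the SlMYB41 knockout by 4.55 (SE 0.66, edgeR quasi-likelihood adjusted p = 0.0011).

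Solyc07g056420, the third of these genes, stood at 34.2, 85.5 and 39.2 CPM in the SlMYB92 knockout, 1.69, 6.93 and 4.99 CPM in the SlMYB41 knockout and 19.1, 43.0 and 74.1 CPM in the control. Its level varied widely between lines, from a mean of 12.9 CPM under SlWRKY71 overexpression to 114 CPM in line 5 of the SlWRKY71 knockout, and the SlMYB41 knockout lay below all of them. The log2 fold change between the knockouts was 3.48 (SE 0.57, edgeR quasi-likelihood adjusted p = 0.0039).

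Some genes fell in both knockouts against the control but further in one of them. In 4 genes the SlMYB92 knockout was the lower one, and in 2 genes the SlMYB41 knockout. Over all tested genes, 206 (1.13%) were called lower in both against the same control libraries. Solyc06g009170, the lower gene with the smallest p, stood at 1.06, 1.17 and 0.836 CPM in the SlMYB92 knockout, 6.57, 11.5 and 9.85 CPM in the SlMYB41 knockout and 18.5, 21.9 and 27.6 CPM in the control. The 3 groups formed separate steps, and the other 5 groups averaged between 26.4 and 31.5 CPM. The log2 fold change between the knockouts was -3.18 (SE 0.29, edgeR quasi-likelihood adjusted p = 1.6e-06). Against the control the gene fell by 4.45 on the log2 scale in the SlMYB92 knockout (SE 0.28) and by 1.27 in the SlMYB41 knockout (SE 0.23), at edgeR quasi-likelihood adjusted p of 5.5e-10 and 0.0013.

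Solyc06g005490 repeated this order, with 0.531, 2.77 and 0.358 CPM in the SlMYB92 knockout, 21.8, 21.5 and 25.1 CPM in the SlMYB41 knockout and 48.6, 54.3 and 46.6 CPM in the control. The SlMYB41 knockout libraries lay near the middle between 0 and the control, and the SlMYB92 knockout libraries near 0. Between the knockouts the log2 fold change was -4.39 (SE 0.41, edgeR quasi-likelihood adjusted p = 1.9e-06). The smaller fall, by 1.13 on the log2 scale in the SlMYB41 knockout against the control (SE 0.31), was called at an edgeR quasi-likelihood adjusted p of 0.036. That call was lost without library 2, 3 or 5 of the SlMYB41 knockout (0.092, 0.098 and 0.08) and without library 2, 3 or 5 of the control (0.063, 0.098 and 0.074). Solyc10g084960 was nearly lost in both, at 0.332, 0.438 and 0.717 CPM in the SlMYB92 knockout, 1.31, 4.1 and 2.97 CPM in the SlMYB41 knockout and 29.5, 27.3 and 27.9 CPM in the control. Its fall against the control was clear in both, by 5.86 on the log2 scale in the SlMYB92 knockout (SE 0.45) and by 3.27 in the SlMYB41 knockout (SE 0.37), at edgeR quasi-likelihood adjusted p of 1e-08 and 3.9e-06. The step between the knockouts was less firm, at a log2 difference of -2.59 with an SE of 0.50 (edgeR quasi-likelihood adjusted p = 0.021). The adjusted p rose to 0.15 and 0.06 without library 2 or 3 of the SlMYB92 knockout, to 0.19 and 0.067 without library 3 or 5 of the SlMYB41 knockout, and to 0.19 on the 6 knockout libraries alone.

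The reverse order, with the SlMYB41 knockout lower, held for 2 genes singled out after their values were seen. Solyc02g062020 stood at 7.04, 6.28 and 3.46 CPM in the SlMYB92 knockout, 0.751, 0.735 and 1.62 CPM in the SlMYB41 knockout and 49.9, 43.2 and 34.0 CPM in the control. Its groups again formed 3 steps, and the log2 fold change between the knockouts was 2.43 (SE 0.34, edgeR quasi-likelihood adjusted p = 0.00071). Solyc08g077100 stood at 9.03, 6.13 and 5.25 CPM in the SlMYB92 knockout, 0.751, 0.946 and 2.02 CPM in the SlMYB41 knockout and 85.5, 117 and 88.7 CPM in the control. Here the control itself stood apart: the other 5 groups averaged between 3.56 and 6.68 CPM, and the SlMYB92 knockout mean of 6.81 CPM lay just above them. The log2 fold change between the knockouts was 2.44 (SE 0.41, edgeR quasi-likelihood adjusted p = 0.0044), and the adjusted p was 0.07 without library 3 of the SlMYB41 knockout. On the 6 knockout libraries alone it was 0.12 for Solyc02g062020 and 0.094 for Solyc08g077100.

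In 3 of the 65 genes the knockouts were called in opposite directions against the control, lower in the SlMYB92 knockout and higher in the SlMYB41 knockout. They were the only ones of all 18297 tested genes called this way (0.0164%), and the 65 were chosen for a difference between the knockouts, which favours such genes. Between the knockouts all 3 were called in every alternative, but their calls against the control were less firm. Solyc08g078330 stood at 2.72, 2.48 and 3.11 CPM in the SlMYB92 knockout, 14.8, 11.3 and 17.4 CPM in the SlMYB41 knockout and 8.78, 6.35 and 4.13 CPM in the control. The SlMYB92 knockout was below and the SlMYB41 knockout above the means of all 6 other groups, which ran between 3.79 and 6.92 CPM. Against the control the log2 fold change was -1.20 (SE 0.29) in the SlMYB92 knockout and 1.18 (SE 0.28) in the SlMYB41 knockout, at edgeR quasi-likelihood adjusted p of 0.02 and 0.012. The fall in the SlMYB92 knockout was not called without library 2, 3 or 5 of that knockout (0.11, 0.081 and 0.053) or library 2 or 3 of the control (0.15 and 0.056). The rise in the SlMYB41 knockout was not called without library 5 of that knockout (0.08) or library 3 or 5 of the control (0.056 and 0.12).

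Solyc06g068690 stood at 0.664, 0.73 and 1.31 CPM in the SlMYB92 knockout, 20.8, 14.3 and 23.2 CPM in the SlMYB41 knockout and 4.33, 4.45 and 3.76 CPM in the control. The SlMYB41 knockout was the highest group of the series, whereas the SlMYB92 knockout lay within the 0.357 to 2.57 CPM of the 5 remaining groups. For this gene the control mean of 4.18 CPM lay above those 5 groups. Between the knockouts the log2 fold change was -4.43 (SE 0.49, edgeR quasi-likelihood adjusted p = 1.8e-05). Its fall in the SlMYB92 knockout against the control had an edgeR quasi-likelihood adjusted p of 0.0086, and of 0.081 without library 2 of that knockout. Solyc06g066590 stood at 8.1, 5.11 and 6.33 CPM in the SlMYB92 knockout, 51.2, 21.6 and 41.4 CPM in the SlMYB41 knockout and 14.1, 16.5 and 14.0 CPM in the control. Here the SlMYB92 knockout was the lowest group of the series, and the SlMYB41 knockout lay within the 18.2 to 50.9 CPM of the 5 remaining groups. For this gene the control mean of 14.9 CPM lay below those 5 groups. Its fall in the SlMYB92 knockout against the control had an edgeR quasi-likelihood adjusted p of 0.015, and was not called without library 3 or 5 of that knockout (0.074 and 0.07) or library 3 of the control (0.056).

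**Figure D4:**
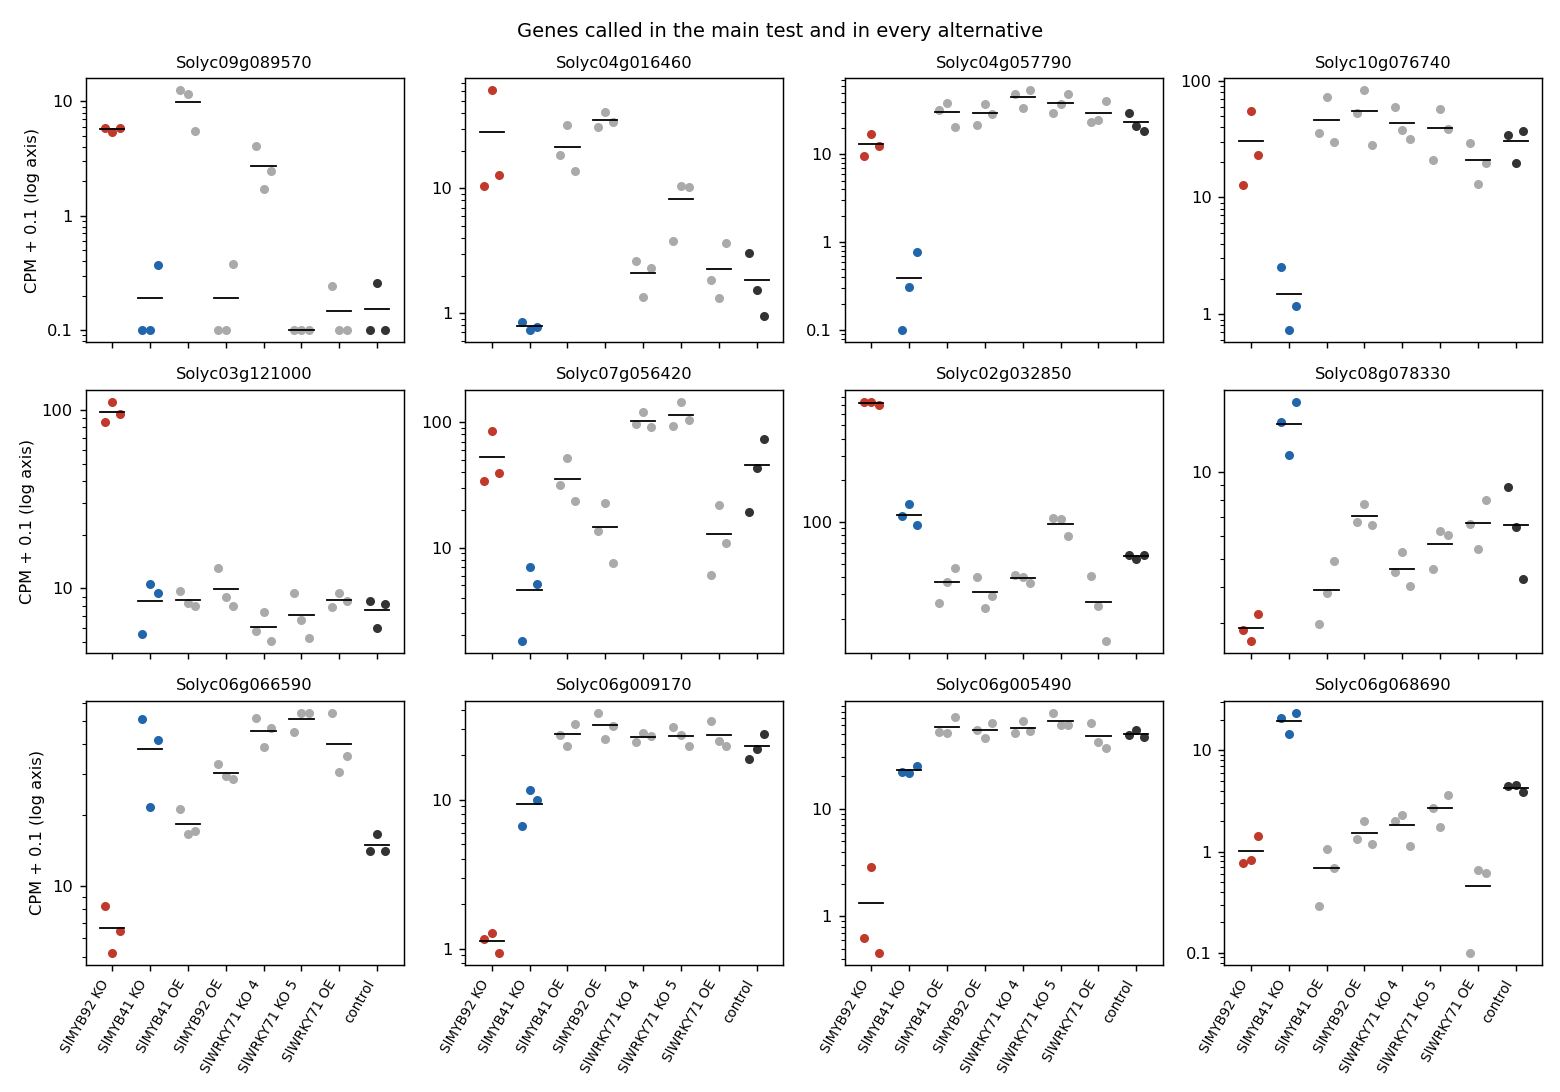
Each panel is 1 of the 12 genes called between the knockouts in every alternative, with CPM + 0.1 on a log y axis whose range differs by panel and the 8 groups on the x axis. Points are libraries (3 per group) and bars are group means. Solyc03g121000 and Solyc02g032850 are highest in the SlMYB92 knockout. Solyc04g057790, Solyc10g076740 and Solyc07g056420 are low in the SlMYB41 knockout, and Solyc04g057790 is to a lesser degree also low in the SlMYB92 knockout. Solyc06g009170 and Solyc06g005490 are low in both and lowest in the SlMYB92 knockout.

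The largest fitted differences downwards were genes without a count in the SlMYB92 knockout. Solyc11g150123 stood at 0 in the SlMYB92 knockout and at 9.01, 7.46 and 4.99 CPM in the SlMYB41 knockout. It had no count in the control or in any library of the other 5 groups, so all of its 156 counts came from the SlMYB41 knockout line. It was at least 70.8-fold lower in the SlMYB92 knockout than in the SlMYB41 knockout (edgeR quasi-likelihood adjusted p = 0.017) and at least 59.5-fold higher in the SlMYB41 knockout than in the control (edgeR quasi-likelihood adjusted p = 0.0027). DESeq2 gave an adjusted p of 0.56 between the knockouts and 0.43 for the SlMYB41 knockout against the control. The edgeR value between the knockouts was 0.071 and 0.053 without library 2 or 5 of the SlMYB92 knockout, and 0.064, 0.099 and 0.062 without library 2, 3 or 5 of the SlMYB41 knockout.

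Solyc02g031950 likewise had no count in the SlMYB92 knockout, against 1.5, 2.42 and 4.05 CPM in the SlMYB41 knockout and 0.234, 0 and 0 CPM in the control. SlWRKY71 overexpression, at a mean of 2.88 CPM, was the only other group with a count. The SlMYB92 knockout was at least 27.7-fold below the SlMYB41 knockout (edgeR quasi-likelihood adjusted p = 0.027). Without library 2, 3 or 5 of the SlMYB92 knockout the adjusted p was 0.12, 0.062 and 0.096, without library 3 or 5 of the SlMYB41 knockout 0.091 and 0.1, and by DESeq2 0.31.

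Solyc01g060055 was absent from the control and present in both knockouts. It stood at 3.45, 2.92 and 2.15 CPM in the SlMYB92 knockout, 15, 7.88 and 8.77 CPM in the SlMYB41 knockout and without a count in the control. Overexpression of SlMYB41 gave a mean of 14.7 CPM and overexpression of SlMYB92 4.89 CPM, whereas the 3 SlWRKY71 groups averaged 0.0482 CPM or less. Against the control it was at least 25.2-fold higher in the SlMYB92 knockout and at least 83.9-fold higher in the SlMYB41 knockout, at edgeR quasi-likelihood adjusted p of 2e-05 and 3.2e-07. The log2 fold change between the knockouts was -1.87 (SE 0.39, edgeR quasi-likelihood adjusted p = 0.046). That call was lost without any 1 library, at adjusted p of 0.13, 0.11 and 0.27 without library 2, 3 or 5 of the SlMYB92 knockout and 0.19, 0.091 and 0.1 without library 2, 3 or 5 of the SlMYB41 knockout.

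Knockout and overexpression of the same factor were read side by side as levels. In 15 of the lower genes the SlMYB92 knockout lay below all 6 other groups while the SlMYB41 knockout lay among them (7.64% of all tested genes), and SlMYB92 overexpression averaged above the control in 8 of these 15, against 72.5% of the 1398 tested genes in the same position. In 18 of the higher genes the SlMYB41 knockout lay below all 6 while the SlMYB92 knockout lay among them (7.43% of all tested genes), and SlMYB41 overexpression averaged above the control in 9 of these 18, against 41.8% of the 1360 tested genes in that position.

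Genes around the edited loci were looked at in the order of the identifiers, 20 listed loci to each side. Around SlMYB92, 25 of the 40 loci were tested and 0 were called by edgeR or by DESeq2 (1 had an unadjusted edgeR p under 0.05), with a median log2 difference of 0.04 and a range of -0.70 to 1.82. Around SlMYB41, 25 of the 40 were tested, with a median of -0.05 and a range of -2.35 to 2.60. An unadjusted edgeR p under 0.05 was found for 6 of them, and for 2227 of all 18297 tested genes. DESeq2 called 3, and 162 over all tested genes. By edgeR 2 were called, where 0.355% of all tested genes were. The first was Solyc02g079340, 6 loci after SlMYB41, at 18.7, 14.0 and 15.4 CPM in the SlMYB92 knockout, 0, 0.946 and 6.75 CPM in the SlMYB41 knockout and 31.9, 23.5 and 28.7 CPM in the control. The SlMYB41 knockout libraries ranged widely here, and all lay below those of both other groups. The SlMYB92 knockout was low as well, without a call against the control. Its mean of 16.0 CPM lay below all 6 other group means, which ran from 25.5 to 51.3 CPM. The log2 fold change between the knockouts was 2.60 (SE 0.51, edgeR quasi-likelihood adjusted p = 0.022). It was not called without library 2 or 5 of the SlMYB92 knockout (0.084 and 0.057), without library 3 of the SlMYB41 knockout (0.17), or on the 6 knockout libraries alone (0.26).

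Solyc02g079170, 11 loci before SlMYB41, stood at 80.7, 108 and 52.4 CPM in the SlMYB92 knockout, 160, 196 and 205 CPM in the SlMYB41 knockout and 74.3, 102 and 77.1 CPM in the control. It was thus high in the SlMYB41 knockout, with a log2 change against the control of 1.15 (SE 0.25, edgeR quasi-likelihood adjusted p = 0.0076). Without library 5 of the control this edgeR value was 0.059. Between the knockouts the log2 fold change was -1.22 (SE 0.25, edgeR quasi-likelihood adjusted p = 0.031), and it was not called without library 2 or 5 of the SlMYB92 knockout (0.13 and 0.23) or library 3 or 5 of the SlMYB41 knockout (0.16 and 0.14).

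Across the genome, the chromosome number in the identifier placed 13 of the 65 genes on chromosome 1, which held 20% of the called and 12.9% of the tested genes. Chromosome 2 followed with 10 genes (15.4% of the called and 10.8% of the tested). Chromosome 6 held 7 (10.8% against 8.78%), of which 6 were lower in the SlMYB92 knockout. No 2 called genes lay within 10 tested loci of each other.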

How the data were processed

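Deposited values are the authors' estimated counts, 1 transcript a locus. The submitters' processing notes name kallisto 0.46.2 and Trim Galore 0.6.6. Which transcript annotation was used is not given in the sources. Near-identical copies share reads by estimation. Libraries did not mark strand, so antisense partners that overlap are counted together. Edited transcripts may still yield counts. Columns were assigned to groups by name. Of the deposited estimated counts, 6.18% were not whole (tolerance 1e-09), and all were rounded.

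Of 34688 loci, 18297 passed filterByExpr. All 24 libraries (4852464 to 15372241 estimated counts) entered 1 edgeR 4.0.16 quasi-likelihood fit (limma 3.58.1, R 4.3.3) after TMM scaling (factors 0.909 to 1.12), with a mean per group, at a Benjamini-Hochberg threshold of 0.05. The common dispersion was 0.0789. SE is the log2 change divided by the square root of F. Where a group had no count, folds are bounds against 3 counts over the group. With 1 to 3 counts they are ratios with a 95% counting interval. Both cover counting error only. In both knockouts and the control, no 2 replicates agreed within sampling noise.

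Genes were named by these rules: the 2 largest called log2 changes in each direction, between the knockouts and in each knockout against the control, among the 65 called genes. Others were singled out after their values were seen. They were called in every alternative, opposite against the control, smallest in p, highest in level or near a target. The rest were called lower than the control in both knockouts, and fell further in the SlMYB41 knockout. The comparison and these rules were chosen with earlier results of these data known. Alternatives were size factors from DESeq2's method in edgeR (RLE), DESeq2 1.42.0, no filter, the 6 knockout libraries alone, a test against a minimum change, a replicate block and each of the 6 knockout libraries left out, with each control library also left out for comparisons with the control.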

Additional observations from a re-analysis of the deposited data

Results flagged for a closer look

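In 3 genes the effects of the knockouts against the control were each called, in opposite directions, and the direct test between the knockouts was called as well. For Solyc08g078330 the log2 fold change of the SlMYB92 knockout over the SlMYB41 knockout was -2.38 (SE 0.29, edgeR quasi-likelihood adjusted p = 9.4e-05), and the means were 2.77 ± 0.315 CPM for the SlMYB92 knockout, 14.5 ± 3.04 CPM for the SlMYB41 knockout and 6.42 ± 2.33 CPM for the control (SD, n = 3 each). For Solyc06g066590 it was -2.52 (SE 0.27, edgeR quasi-likelihood adjusted p = 1.6e-05), with log2 fold changes against the control of -1.17 in the SlMYB92 knockout and 1.35 in the SlMYB41 knockout. For Solyc06g068690 it was -4.43, with log2 fold changes against the control of -2.21 in the SlMYB92 knockout and 2.22 in the SlMYB41 knockout. The control itself lay outside the 5 remaining groups in 2 of these genes. For Solyc06g068690 its mean of 4.18 CPM was above their 0.357 to 2.57 CPM, where the SlMYB92 knockout also lay. For Solyc06g066590 its mean of 14.9 CPM was below their 18.2 to 50.9 CPM, where the SlMYB41 knockout also lay.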

How the results depend on the processing

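The reported 28 higher and 37 lower genes, of which 31 were called in the SlMYB92 knockout and 38 in the SlMYB41 knockout against the control, became the following. RLE size factors gave 25, 30, 27 and 33. DESeq2 gave 72, 90, 51 and 86, sharing 61 of the 65 genes. No filter gave 43, 56, 39 and 58. The 6 knockout libraries alone (with those of the control for comparisons against it) gave 17, 14, 15 and 15, and the test against a log2 change of 1 gave 11, 7, 8 and 7. Leaving out each knockout library in turn gave 11 to 29 higher and 13 to 38 lower genes. Over these fits and those without 1 control library, 14 to 26 of the called genes were called in the SlMYB92 knockout against the control. For the SlMYB41 knockout the range was 13 to 31. The cause of these shifts was not tested. With the replicate block the counts were 25, 42, 26 and 38, and 53 of the 65 genes were shared. Of the named genes, Solyc11g150123, Solyc02g031950, Solyc04g072360 and Solyc01g060055 were then not called, at edgeR quasi-likelihood adjusted p of 0.066, 0.084, 0.09 and 0.08. The column numbers did not pair the knockouts: deviations of libraries with the same number correlated at -0.22 to 0.25, and 1 of 3 numbers was its own best partner. Among the 24 called genes named in the text and the 3 targets, 321 alternative values between the knockouts were computed. Of these, 263 stayed on the same side of the threshold and 58 lost the call. Among the 24 called genes 0 values changed direction. For the 3 targets, which were not called, changes of direction were not counted. Of 510 alternative values for the calls of the 24 genes against the control, 46 lost the call and 0 changed direction. Depth limits what can be said of SlMYB41 and SlMYB92, which had 0 to 4 counts per knockout library.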

Other observations

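Not every large difference was called. Of the genes with a fitted log2 difference above 5 in size between the knockouts, 10 were called and 17 were not, and in 11 of the 17 the libraries did not overlap. Over all tested genes 16.4% did not overlap, and these 17 were picked for their large fitted difference. Solyc02g064590, singled out as the largest, stood at 6.44, 22.3 and 7.64 CPM in the SlMYB92 knockout and without a count in the SlMYB41 knockout, at an edgeR quasi-likelihood adjusted p of 0.27. Solyc02g031940, whose identifier is next to that of the called gene Solyc02g031950, had no count in the SlMYB92 knockout and 3.00, 1.58 and 2.29 CPM in the SlMYB41 knockout, at an edgeR quasi-likelihood adjusted p of 0.071. Like its neighbour it had counts under SlWRKY71 overexpression, at a mean of 1.08 CPM, and none in the other overexpression groups. Solyc04g016470, with an identifier close to that of the called gene Solyc04g016460, stood at 0.133, 1.17 and 0.478 CPM in the SlMYB92 knockout. It had no count in the SlMYB41 knockout, at an edgeR quasi-likelihood adjusted p of 0.33.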
